A study of Mus musculus with 2 samples.

Results

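Mir26a-1, Mir26a-2 and Mir26b are the 3 genes of the mouse Mir26 family, and each lies in a gene for a small C-terminal domain phosphatase (Ctdspl, Ctdsp2 and Ctdsp1). They were taken from the gene tables by stable Ensembl identifier, and all 3 were present among 1973 listed microRNA genes. The tables count small RNA reads from hearts of B6NCrl mouse embryos at embryonic day 10.5, in 2 libraries. Replicate 1 came from a pool of 69 embryos and replicate 2 from a pool of 51, both of mixed sex. The labels call the embryos healthy, name no treatment and no altered allele, and give 1 group, so no condition, tissue or age was compared. The pooling of many hearts limits what the spread of the libraries covers, since it averages over the embryos of a pool.

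MicroRNAs are cut from a hairpin in 2 steps, which leaves a 5p arm and a 3p arm, and 1 of the arms is usually kept in the silencing complex. There the seed, bases 2 to 8 of the mature arm, pairs with target messenger RNAs. MiR-26 is known as a broadly expressed microRNA that restrains the cell cycle. The Ctdsp phosphatases that host it are known to act on the C-terminal domain of RNA polymerase II and on the retinoblastoma protein. An intronic microRNA on the strand of its host is often made from the host's own transcript. Messenger RNA of the hosts was not analysed here.

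The mature arms bear on which gene a read can be placed in, so they are printed first, with the seed in capitals. They come from RefSeq (GRCm38.p6, the same assembly as mm10), which held all 3 genes.

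mmu-miR-26a-5p of Mir26a-1 and of Mir26a-2: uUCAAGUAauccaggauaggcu

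mmu-miR-26b-5p of Mir26b: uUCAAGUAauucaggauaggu

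mmu-miR-26a-1-3p: cCUAUUCUugguuacuugcacg

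mmu-miR-26a-2-3p: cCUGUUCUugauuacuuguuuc

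mmu-miR-26b-3p: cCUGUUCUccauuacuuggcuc

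The 5p arm of Mir26a-1 and the 5p arm of Mir26a-2 are the same 22 bases. Against this arm, the 21 bases of miR-26b-5p differ at 2 positions, C11U and C21U, counted from 1 at the 5′ end with miR-26a-5p as the reference. Both changes lie outside the seed, so all 3 genes share the 5p seed UCAAGUA. No other gene among 1738 mature arms in the RefSeq table had that seed.

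The 3p arms set the copies apart. MiR-26a-2-3p differs from miR-26a-1-3p at 6 of 22 positions, of which A4G falls in the seed. MiR-26b-3p differs from miR-26a-2-3p at 4 positions (U9C, G10C, U19G and U20C) and has the same seed, CUGUUCU. The genes Mir6932 and Mir7039 also carry that 3p seed.

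The whole hairpins show how far the identity of the copies reaches. Capitals mark the mature arms.

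Mir26a-1: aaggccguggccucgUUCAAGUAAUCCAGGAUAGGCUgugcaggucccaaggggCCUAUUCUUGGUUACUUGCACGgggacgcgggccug

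Mir26a-2: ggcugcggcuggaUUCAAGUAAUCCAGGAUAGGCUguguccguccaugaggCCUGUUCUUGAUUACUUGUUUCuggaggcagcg

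Mir26b: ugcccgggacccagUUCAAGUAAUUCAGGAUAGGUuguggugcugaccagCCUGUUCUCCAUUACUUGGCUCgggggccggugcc

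Mir26a-1 and Mir26a-2 share an unbroken stretch of 25 bases, uucaaguaauccaggauaggcugug. It starts with the first base of miR-26a-5p and runs 3 bases past its end. Mir26b shares at most 11 bases in a row with Mir26a-1 and 10 with Mir26a-2. Of the 22-base windows along each hairpin, 4 of 69 in Mir26a-1 and 4 of 63 in Mir26a-2 were also present in the other copy. None of the 64 windows of Mir26b was present in another of 2202 annotated hairpins. A read of the whole miR-26a-5p arm therefore matches 2 annotated places equally well. Among the annotated hairpins, a read of miR-26b-5p matches 1 place exactly, and the closest other places, the Mir26a copies, differ from it by 2 bases.

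**Figure D1:**
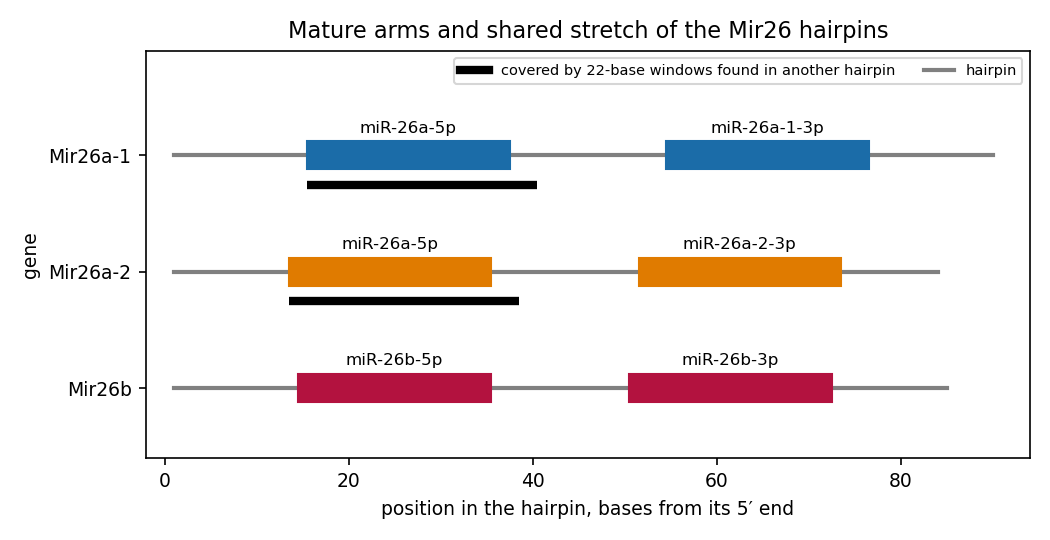
Hairpins of the 3 genes drawn to scale, with position in bases from the 5′ end on the x axis and the gene on the y axis; boxes are mature arms and black bars the stretch covered by 22-base windows that another hairpin also holds. The bar spans the 5p arm in Mir26a-1 and Mir26a-2, and Mir26b has no such bar.

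Mir26a-1 (ENSMUSG00000065513.1) lies on chromosome 9, 119031796 to 119031885 (mm10), on the plus strand. It sits in intron 5 of the principal transcript of Ctdspl, an intron of 3283 bases, 1543 bases after the exon before it. Mir26a-2 (ENSMUSG00000065430.1) lies on chromosome 10, 126995530 to 126995613, on the plus strand, in intron 5 of the principal transcript of Ctdsp2, 241 bases before the next exon. In 2 other annotated Ctdsp2 transcripts its place is part of an exon. Mir26b (ENSMUSG00000065468.1) lies on chromosome 1, 74394310 to 74394394, on the plus strand, in intron 4 of the principal transcript of Ctdsp1. That intron is short, 564 bases, and Mir26b begins 234 bases into it. All 3 hosts are on the same strand as their microRNA, and no other annotated gene overlapped a member.

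Reads on each gene's own strand were used. The libraries held 4163656 own-strand gene counts in replicate 1 and 4789068 in replicate 2. Levels are given as CPM, a gene's share of these counts scaled to a fixed total, with exact 95% intervals (Clopper-Pearson). The intervals cover counting error alone and take each read as a separate molecule. No molecular identifiers are named that would tell PCR copies from separate molecules, so the real error may be larger. Reads mapped to several places, 2337267 and 2587089, stand in a row of their own in the tables and belong to no gene. A gene level from bulk tissue does not tell fewer expressing cells from less RNA per cell.

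Mir26b had 127192 counts in replicate 1 and 146570 in replicate 2. These were 30548 CPM (interval 30383 to 30714) and 30605 CPM (30451 to 30760), a mean of 30577 ± 40.3 CPM (SD, n = 2). The libraries were level, with intervals that overlapped. Mir26b held 3.05% and 3.06% of own-strand gene counts and ranked 7th in replicate 1 and 8th in replicate 2 among the listed genes.

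Mir26a-2 had 117 and 122 counts, 28.1 CPM (23.2 to 33.7) and 25.5 CPM (21.2 to 30.4), with a mean of 26.8 ± 1.86 CPM (SD, n = 2). Mir26a-1 had 40 and 28 counts, 9.61 CPM (6.86 to 13.1) and 5.85 CPM (3.89 to 8.45), with a mean of 7.73 ± 2.66 CPM (SD, n = 2). For both genes the intervals of the libraries overlapped. Mir26a-2 ranked 256th and Mir26a-1 318th by mean CPM. Each member stood above the 0.721 and 0.626 CPM that 3 counts make in replicates 1 and 2, the limit that a count of 0 allows. On the opposite strand all 3 genes had 0 counts in both libraries, which allows up to 3 counts each.

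**Figure D2:**
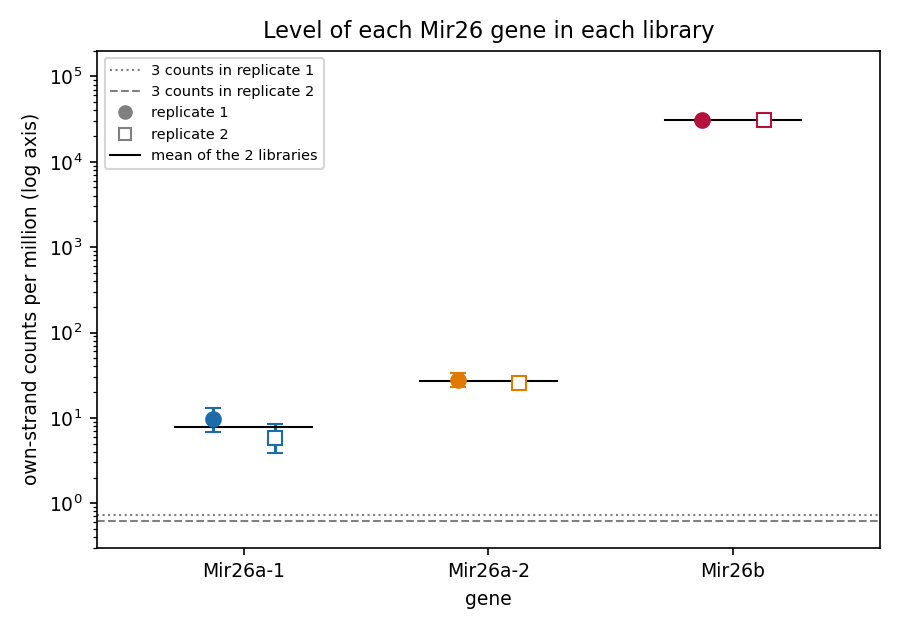
Own-strand CPM (log axis) of the 3 genes in each library; points are libraries, bars exact 95% intervals, black lines means of 2 libraries, and grey lines the level of 3 counts. Mir26b lies near 30577 CPM, Mir26a-2 near 26.8 and Mir26a-1 near 7.73, and the order is the same in both libraries.

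The order Mir26b, Mir26a-2, Mir26a-1 held in both libraries, with intervals that did not overlap between genes within a library. Per base of hairpin, the levels were 360 ± 0.474 CPM for Mir26b (85 bases), 0.319 ± 0.0221 CPM for Mir26a-2 (84 bases) and 0.0859 ± 0.0295 CPM for Mir26a-1 (90 bases; SD, n = 2), so length does not alter the order. Mir26b held 99.88% of the family's counts in replicate 1 (interval 99.86 to 99.90) and 99.90% in replicate 2 (99.88 to 99.91). Mir26b counts exceeded Mir26a-2 counts 1087-fold in replicate 1 and 1201-fold in replicate 2. They exceeded Mir26a-1 counts 3180-fold and 5235-fold. Between the copies, Mir26a-2 exceeded Mir26a-1 2.93-fold in replicate 1 (interval 2.03 to 4.30) and 4.36-fold in replicate 2 (2.87 to 6.83). With each read taken as a separate molecule, this difference was larger than counting error in each library.

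These ratios compare counted reads and do not give the ratio of miR-26b to miR-26a. The copies together had 157 and 150 counts. The row of reads mapped to several places was 18.4 times the Mir26b count in replicate 1 and 17.7 times in replicate 2. How many of those reads are miR-26a-5p was not tested, since the tables give neither read sequences nor arms. For the same reason the arm behind the counts of each gene is not known here.

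The other genes with a shared arm give the setting of the Mir26a counts. Of the 1973 listed genes, 916 matched the RefSeq table by symbol, and these held 90.7% and 89.3% of own-strand counts. Among them, 105 shared a whole mature arm with a hairpin at another place, as far as the arms and hairpins used here show. An arm that the RefSeq table does not hold could not be found as shared. The class without a shared arm may therefore include further copies. At least 10 counts in 1 library or more were reached by 50 of the 105, with a median of 43.0 CPM, and by 332 of the 811 that share no whole arm, with a median of 111 CPM. Mir143, with a mean of 76938 CPM, was not matched and stands in neither class. At or above 10000 CPM stood 20 of the 811 genes without a shared arm, Mir26b among them, and 0 of the 105 with one. At or above 1000 CPM the numbers were 86 and 2. These are descriptions of the counted reads, with no test, because genes of a family are not independent.

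Not every shared arm went with low counts. Mir92-1 of the Mir17-92 cluster shares miR-92a-3p with Mir92-2 and had 5383 CPM, the highest level of the 105. By summed level, the Mir26a pair with 34.5 CPM stood 22nd of 73 sets of genes with an identical arm. The sets of miR-92a-3p (5626 CPM), miR-16-5p (2092 CPM), miR-181a-5p (1002 CPM) and miR-181b-5p (987 CPM) led that order.

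Like Mir26, other families have genes with a shared arm and genes with an arm found once. A comparison within seeds, chosen after the levels were seen, as were the groups named from it, used seeds with at least 1000 counts in each library, and 12 groups met this. In the Mir26 group 99.9% of counts were on the gene whose arm is found once, second among the groups. The group above it, of Mir149, had 100% because its shared-arm genes had 0 counts. In the Mir30 group the share was 99.7% and 99.6% in replicates 1 and 2, and in the Mir29 group 97.9% and 98.6%. In the group of Mir107 and the Mir103 copies it was 91.6% and 95.6%. The median over the groups was 97.0%, and 10 of 12 exceeded 90% in both libraries. The exceptions were the Mir181 group, with 71.7% and 66.7%, and the Mir92 group, with 22.4% and 18.8%. Over all matched genes, those without a shared arm held 89.3% and 88.1% of own-strand counts. Those with a shared arm held 1.44% and 1.11%, so a high share is no trait of these groups. The groups hold unequal numbers of genes of each kind, and some let-7 genes stand in more than 1 group. They hold only genes matched to the RefSeq table by symbol and with the arm of that seed given there. Mir30b and Mir30d, for example, are listed but were not matched, so the shares are not totals of whole families.

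**Figure D3:**
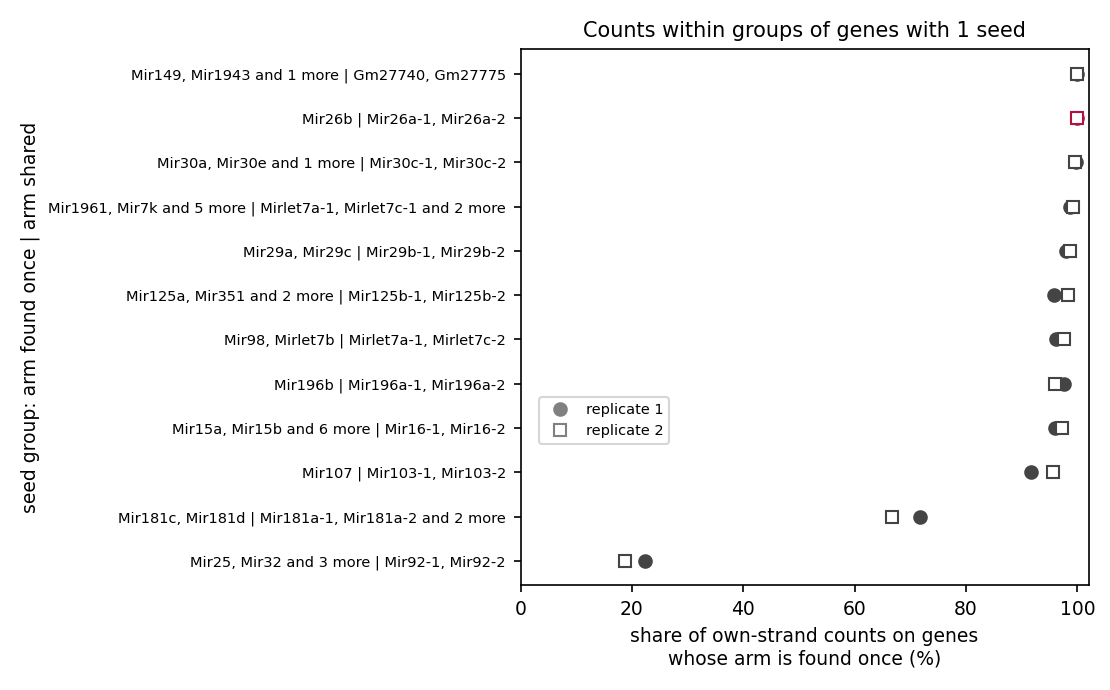
Share of own-strand counts (percent, x axis) on genes whose mature arm is found once, in 12 groups of genes with the same seed (y axis; names left of the bar have an arm found once, those right of it a shared arm), with 1 point for each library. Mir26 (red) lies at 99.9%, and the Mir181 and Mir92 groups lie below 90%.

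In the order of mean CPM, Mir26b stood between Mir208b and Mir351. Above it were Mir17 with 37110 ± 13467 CPM, Mir99a with 35927 ± 749 CPM and Mir208b with 35502 ± 20457 CPM. Below it were Mir351 with 28735 ± 13279 CPM, Mir30e with 26887 ± 868 CPM and Mir21a with 17824 ± 2123 CPM (all SD, n = 2). The place of Mir26b next to Mir17, Mir208b and Mir351 is not settled, because their SDs span it. Mir99a was higher and Mir30e and Mir21a lower than Mir26b in both libraries. Mir208b, a heart muscle microRNA of a myosin gene, stood below Mir26b in replicate 1 with 21037 CPM and above it in replicate 2 with 49967 CPM.

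**Figure D4:**
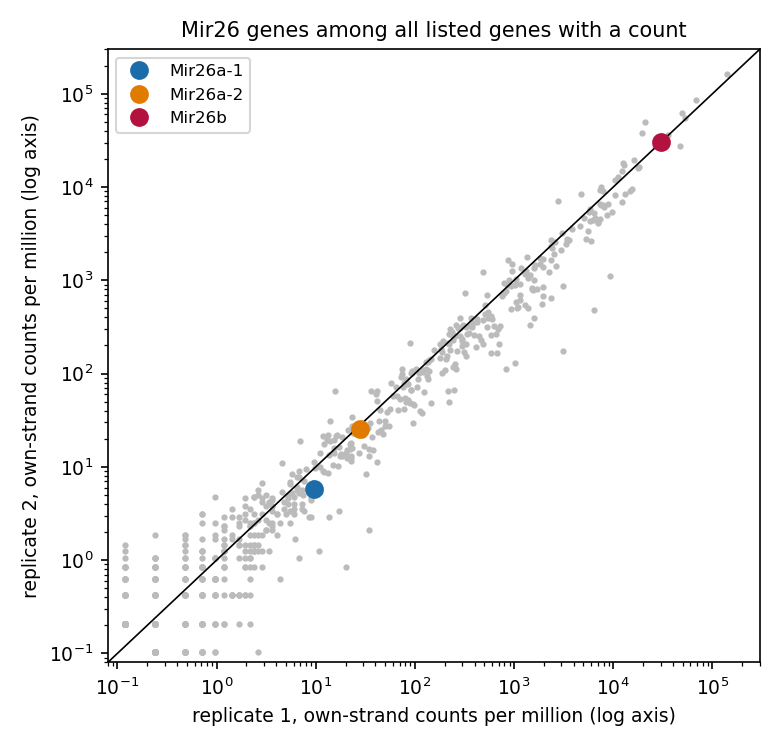
Own-strand CPM in replicate 1 (x axis) and replicate 2 (y axis), both log axes, for each listed gene with a count; a count of 0 is drawn at the level of a 0.5 count and the line marks equal levels. Mir26b lies on the line at 30548 and 30605 CPM, Mir26a-2 just below it and Mir26a-1 further below.

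The pools were compared by an exact two-sided conditional binomial test with library sizes scaled by TMM, Benjamini-Hochberg adjusted over 424 genes with at least 10 counts in 1 library or more. The test asks whether 2 libraries differ beyond counting error, not whether conditions do. All 3 members passed the count filter, and 1 of 3 was called. Over all tested genes, 61.6% were called, 30.4% as higher in replicate 2 and 31.1% as lower, so 1 called member of 3 is no result about the family.

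Mir26b was called as higher in replicate 2, at a log2 ratio of 0.28 (interval 0.27 to 0.29), a 1.21-fold difference with a p too small for the test to write. The call and the size rest on the scaling. With total own-strand counts as the scaling, its log2 ratio rounded to 0 (interval -0.01 to 0.01; adjusted p = 0.697 by the exact binomial test) and Mir26b was not called. That scaling lowers every log2 ratio by 0.27. It called 61.8% of tested genes, 15.6% as higher and 46.2% as lower, and called 0 of the 3 members.

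Under TMM the difference in Mir26b was below that of the median tested gene. The median tested gene differed 1.38-fold either way, and the common biological coefficient of variation was 37.2%, from 1 residual degree of freedom. Of 153 genes with at least 1000 counts in each library, 63 differed less than Mir26b under TMM and 2 differed less under total counts. The median absolute log2 ratio of the 153 was 0.384 under TMM.

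Neither Mir26a gene was called. Mir26a-2 had a log2 ratio of 0.13 (interval -0.24 to 0.51; adjusted p = 0.567 by the exact binomial test), and -0.14 (-0.52 to 0.24) under total counts. Its sign turned with the scaling. Mir26a-1 had a log2 ratio of -0.43 (interval -1.19 to 0.29; adjusted p = 0.305 by the exact binomial test), and -0.71 (-1.47 to 0.02; adjusted p = 0.0793) under total counts. These intervals are wide, so a missed threshold does not show that the pools were alike.

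**Figure D5:**
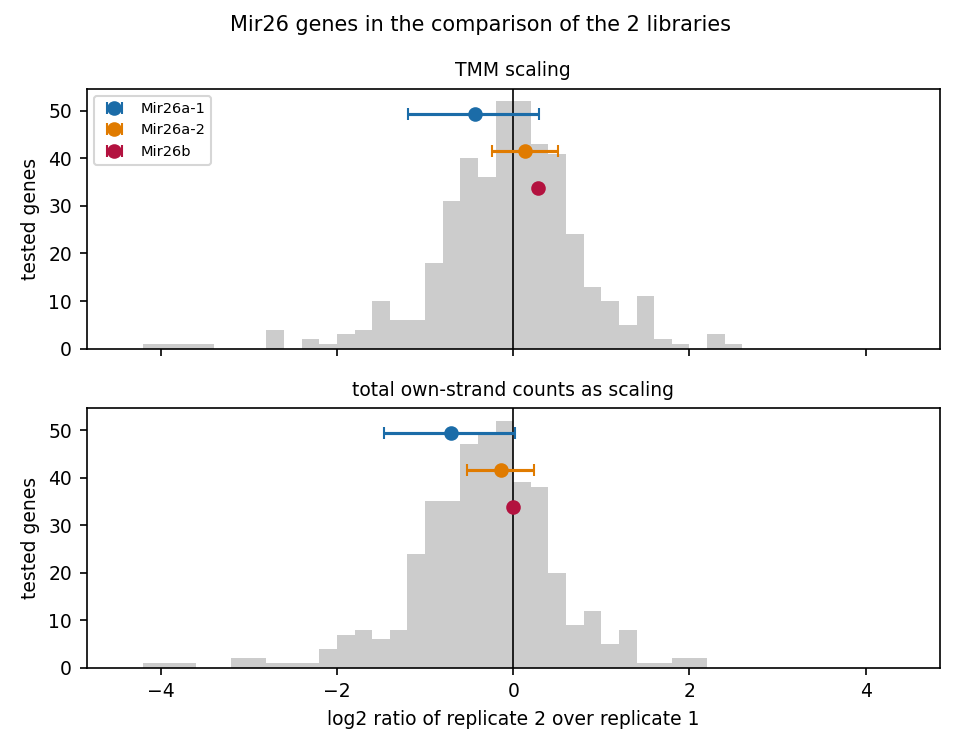
Histograms of the log2 ratio of replicate 2 over replicate 1 (x axis) for 424 tested genes (number on the y axis), with TMM scaling above and total own-strand counts below; points are the members with exact 95% intervals, set at heights that carry no value. Mir26b lies at 0.28 above and at 0 below, and the intervals of Mir26a-1 and Mir26a-2 include 0 in both panels.

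Genes with the ratio nearest to each member's were found over the 2 libraries, which is too few for a pattern. Nearest to Mir26b, among 152 other genes with at least 1000 counts in each library, were Mir185 (log2 ratio 0.27), Mir151 (0.27) and Mir532 (0.27). Nearest to Mir26a-2, among 380 genes with at least 10 counts in each library, were Mir186, Mir3064 and Mir342, each at 0.13. Nearest to Mir26a-1 were Mir5101, Mir7654 and Mir379, each at -0.44.

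Some markers of the tissue and of its neighbours differed in CPM between the libraries, and others, such as Mir126a, were close. Mir26b had nearly the same CPM in both, but under TMM scaling it was called as higher in replicate 2. All 5 heart muscle markers were listed, and they summed to 34745 CPM in replicate 1 and 69054 CPM in replicate 2. Mir208b led them, Mir208a had 15135 ± 3251 CPM and Mir499 1257 ± 551 CPM, while Mir1a-1 had 3.61 ± 0.672 CPM and Mir133a-1 1.93 ± 1.71 CPM (SD, n = 2). How many reads of Mir1a-1 and Mir133a-1 stood among the reads mapped to several places was not tested. Their low levels therefore do not show that these microRNAs were scarce. The trunk markers Mir10a and Mir10b summed to 15570 and 1596 CPM, and the liver marker Mir122 had 3078 and 175 CPM. Of the red blood cell markers, which summed to 1067 and 1612 CPM, Mir451a had 947 and 1509 CPM and Mir144 had 119.8 and 102.9 CPM. The leukocyte marker Mir223 had 240 and 118 CPM. Endothelial Mir126a had 53306 and 55503 CPM, and smooth muscle Mir143 had 68864 and 85011 CPM. Of 5 listed neural markers, 4 had 0 counts in both libraries, and the 5 summed to 1.68 and 1.46 CPM. Among them, Mir9-2 and Mir9-3 share whole mature arms, so reads of those arms can fall among the reads mapped to several places. The low neural counts therefore do not show that neural microRNAs were absent. The part of these cell types in the Mir26 counts was not tested.

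Beside a list of other microRNAs known to restrain the cell cycle, Mir26b had the higher count. Of 34 names in that list, 28 were listed genes, and 0 of them exceeded Mir26b in mean CPM. The highest were Mir22, which has growth-restraining roles in several tissues, with 8727 ± 1693 CPM, and the let-7 genes Mirlet7g with 6544 ± 2600 CPM and Mirlet7i with 4975 ± 3080 CPM (SD, n = 2). Mir26a-2 was exceeded by 20 of the 28 and Mir26a-1 by 23. Some of the 28, among them let-7 and Mir16 genes, share a whole mature arm. Reads of such an arm can be missing from their counts, so this order is of counted reads only. Of 24 tested, 16 were called higher in replicate 2, 3 lower and 5 not called, where 30.4% of all tested genes were called higher and 31.1% lower. The median log2 ratio was 0.46 against -0.01 over all tested genes. Under total counts 12 were called higher and 7 lower, beside 15.6% and 46.2% of all tested genes, with a median of 0.19 against -0.29.

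Among microRNAs within protein-coding hosts, the class to which the Mir26 genes belong, 44 of 50 names were listed genes, and 3 of them exceeded Mir26b. These were Mir335 of the imprinted gene Mest with 151298 ± 16851 CPM, Mir126a of Egfl7 with 54405 ± 1554 CPM and Mir208b of Myh7 (SD, n = 2). Mir26a-2 was exceeded by 39 of the 44 and Mir26a-1 by 42. Some of the 44, such as the Mir103 copies, share a whole mature arm, so the same limit holds. By the annotation, 38 of the 44 lie wholly in an intron on the host's strand, 5 overlap an exon of some transcript and 1 has no such host. All 44 were tested, and 23 were called higher in replicate 2, 11 lower and 10 not called, beside the same 30.4% and 31.1% of all tested genes. The median log2 ratio was 0.14 against -0.01 over all tested genes. Under total counts, which shift all genes alike, 12 were called higher and 21 lower, beside 15.6% and 46.2% of all tested genes, with a median of -0.13 against -0.29.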

How the data were processed

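Small RNA reads were counted by the authors, who deposited raw read counts per gene for each library, with no normalization. The assembly was mm10 and the annotation GENCODE M4, per the labels and the deposited README text. The aligner, trimming and counting settings were not given in the sources used here. Symbols, positions and hosts came from GENCODE M21 (also mm10), which matched 1894 of 1973 identifiers. Entries for no gene stayed out of totals and tests. Unmapped reads were 26.3% and 25.5%, reads at several places 23.3% and 23.5%, and reads outside genes (own strand) 8.98% and 7.41% of all reads.

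Levels are CPM of own-strand gene counts. The pools were compared across all genes by exact conditional binomial tests (scipy 1.17.1, threshold 0.05, prior count 0.5 in log2 ratios) with TMM sizes (edgeR 4.0.16). The binomial test was tried on simulated counts that held counting error alone, with total counts as the sizes. That trial covered neither TMM scaling nor spread between pools. Alternatives were counts over both strands, DESeq2 1.42.0 size factors, total counts, other filters and prior counts, and leaving out genes or replicates. Identical arms came from RefSeq and GENCODE hairpins; a whole genome was not used here. Genes named are the members, those nearest in level or ratio, the leading shared-arm sets, the markers and the 3 highest of each list. The members and lists were chosen with earlier results of these data known. The labels call the libraries biological replicates.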

Additional observations from a re-analysis of the deposited data

How the results depend on the processing

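The share of family counts on Mir26b stayed within its SD under counts over both strands, per base of hairpin and with either replicate alone. The level of Mir26b moved by more than its small SD under each other total tried. It was 29195 CPM with counts over both strands, 30718 with TMM-scaled and 30653 with DESeq2-scaled totals, 36035 without the most abundant gene and 30973 without genes that share an arm. With all reads as the total, Mir26b had 12997 CPM, Mir26a-1 3.26 CPM and Mir26a-2 11.4 CPM. Without the most abundant gene, Mir26a-2 had 31.5 CPM. Under total counts the log2 ratio of Mir26b was 0.0027 (not called; called under the other settings run) and that of Mir26a-2 turned to -0.14. Under total counts the genes called higher in replicate 2 fell from 129 to 66, while all calls ran from 228 to 270 over the settings. DESeq2 gave both libraries the same size. In the cell cycle list, lower calls went from 3 to 5 with DESeq2 size factors and 7 with total counts, and in the host list higher calls went from 23 to 12 and lower calls from 11 to 21 with total counts; these list settings were chosen after seeing the data. The Mir26a genes had no value without genes that share an arm, and Mir26a-1 none at a filter of 100 counts. Copies of 20 bases were present for 929 listed genes, 969 at 18 bases and 880 at 22. No paired analysis was possible because the labels give 1 group. With 1 library left, no replicate ratio can be computed. Depth limits the Mir26a genes, at 28 to 122 counts.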
